A study of Mus musculus with 6 samples.

Results

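The genes described here store, carry and export iron. They were taken by symbol from the deposited count and FPKM tables and number 8 of 34395 gene entries: the ferritin genes Fth1 and Ftl1, the transferrin gene Trf and its receptor gene Tfrc, the iron exporter gene Slc40a1, the ferroxidase genes Cp and Heph, and Hmox1, whose enzyme frees iron from heme. Total RNA, depleted of ribosomal RNA, was sequenced in 6 libraries, 3 young and 3 old, from the cochlear base of C57BL/6J mice. C57BL/6J is an inbred strain that loses high-frequency hearing early in life, and the series was built to study age-related hearing loss. All libraries share the strain and the cochlear region, and the labels name no treatment or transgene. Age in months, sex labels and the number of animals behind a library are missing from the sources used here. A p-value thus reflects library-to-library spread, which may be technical. Young libraries had a female RNA profile, with Xist at 12613 to 18384 counts and the Y-linked Ddx3y at 0. Old libraries had a male profile, with Xist at 0 to 9 counts and Ddx3y at 868 to 1107. Every difference between old and young is therefore also one between these profiles.

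Cells take up iron bound to transferrin through the transferrin receptor, keep it inside ferritin, a shell of heavy and light subunits, and release it through ferroportin, the Slc40a1 product, with the help of the copper enzymes ceruloplasmin (Cp) and hephaestin (Heph). Iron regulatory proteins, the products of Aco1 and Ireb2, bind a stem-loop called the iron-responsive element. In a 5' UTR the bound element blocks translation, and in the 3' UTR of the receptor mRNA it protects the mRNA from decay. In the cochlea, fibrocytes, strial cells and macrophages are among the cells that handle iron, and iron is studied there as a source of oxidative stress.

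The elements are shown because they part the genes by the sign of this control. The mRNAs of 21877 protein-coding genes (GENCODE M21, GRCm38) were searched, on the transcribed strand alone and with overlapping matches allowed, for a C, a 5-base stem, the loop CAGTGN and a second stem that pairs with the first at all 5 positions, G-T pairs included. A match in a UTR was found for 0.731% of these genes, and for 4 of the 8 iron genes. Among the other iron pathway genes described below, Alas2 had a match in its 5' UTR and Bola3 in its 3' UTR. Capitals mark the loop, and T stands for U.
Fth1: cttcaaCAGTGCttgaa
Ftl1: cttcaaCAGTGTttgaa
Slc40a1: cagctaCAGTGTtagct
Tfrc site 1: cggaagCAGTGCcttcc
Tfrc site 2: cgggagCAGTGTcttcc
Tfrc site 3: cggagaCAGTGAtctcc
Tfrc site 4: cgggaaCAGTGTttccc
The elements of Fth1 (chr19:9982738-9982754, plus strand), Ftl1 (chr7:45459785-45459801, minus strand) and Slc40a1 (chr1:45925471-45925487, minus strand) lie in the 5' UTR. The 4 matches found in Tfrc lie in its 3' UTR on the plus strand, at chr16:32631225-32631241, chr16:32631604-32631620, chr16:32631669-32631685 and chr16:32631716-32631732. An element that does not pair at all 5 positions is missed by this search. The 2 ferritin elements have the same stems and differ in the last base of the loop. A match of letters is a description and does not show that a protein was bound in this tissue.

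All 8 genes fell in the old libraries, and none rose. The falls were largest for the low-level genes of export, Heph (3.53-fold lower, log2 fold change -1.82 ± 0.19, SE) and Slc40a1 (3.03-fold lower), intermediate for uptake, Tfrc (2.50-fold) and Trf (2.39-fold), and smaller for Hmox1 (1.83-fold), Fth1 (1.67-fold), Ftl1 (1.66-fold) and Cp (1.53-fold). The call is an adjusted p under 0.05 in edgeR's quasi-likelihood test with Benjamini-Hochberg adjustment over 20157 features. Of these features 54.2% changed, 27.3% lower and 26.9% higher, and among protein-coding genes alone 34.7% fell. At least 2-fold lower were 4 of the 8 genes, against 6.15% of all features. All 3 old libraries lay below all 3 young ones for 8 of 8 genes, against 31.0% of features and 5989 of 15316 protein-coding genes. The groups stood apart in either direction for 62.3% of features. The median log2 fold change was -1.06 over the 8 genes, -0.13 over protein-coding genes and 0.01 over all features. The size of a change depends on the scaling: with library totals alone, which raised the median of all features by 0.27, 73.9% of the changed features were higher in place of 49.7%. TMM on protein-coding genes raised that median by 0.13 and gave 62.1% higher. With library totals alone all 8 genes still passed, with log2 fold changes from -0.34 for Cp to -1.54 for Heph, where 14.5% of features fell.

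**Figure D1:**
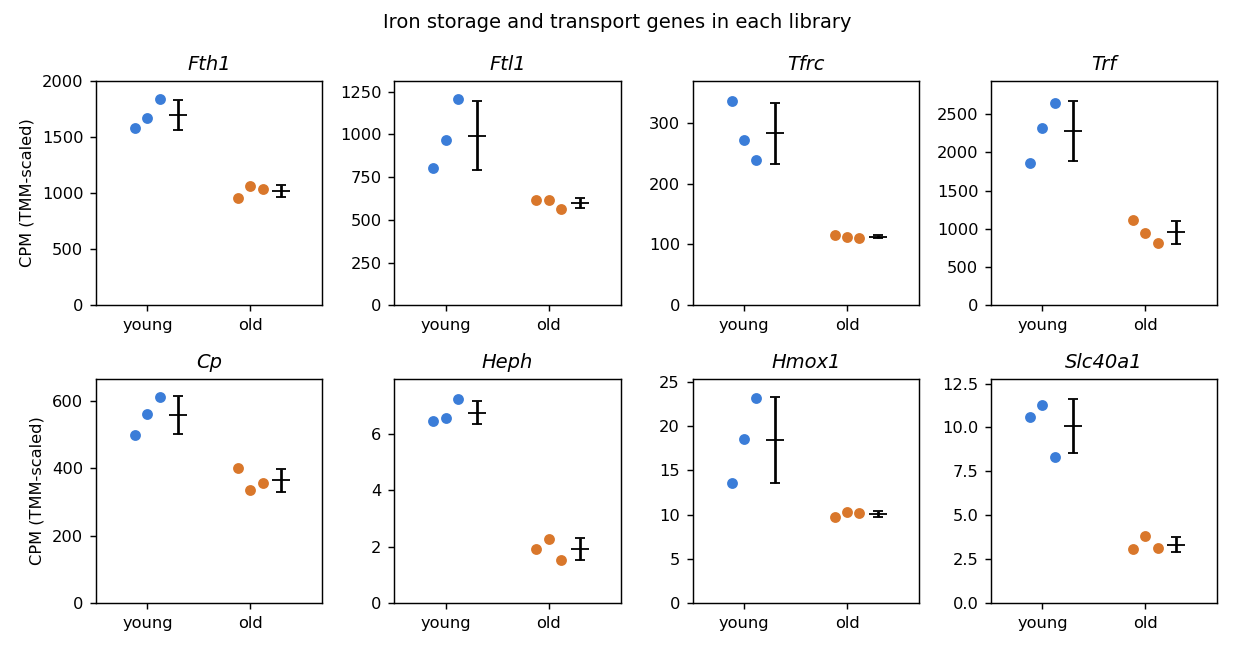
CPM (TMM-scaled, linear axes from 0) of the 8 genes in each of the 3 young (blue) and 3 old (orange) libraries, in library order 1 to 3; the bars show mean ± SD. In each panel the old points lie below the young ones, and Heph falls from 6.47 to 7.22 CPM in young to 1.52 to 2.28 CPM in old libraries.

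Fth1 and Ftl1 encode the heavy subunit of ferritin, which oxidises iron, and the light subunit, which helps to nucleate the mineral core. Levels are given as CPM, counts scaled to a common library total with TMM factors. Fth1 (gene 14319, chromosome 19, 9980600 to 9985111, GRCm38.p6) had 1585, 1670 and 1843 CPM in young 1, 2 and 3 and 955.5, 1061 and 1038 CPM in old 1, 2 and 3. The young libraries stood well above the old ones, and the spread within each group was small beside the gap. The log2 fold change was -0.74 ± 0.09 (SE; edgeR adjusted p = 0.000119). Ftl1 (gene 14325, chromosome 7, 45457944 to 45459886) had 803.7, 964.5 and 1206 CPM in young 1, 2 and 3 and 614.1, 613.1 and 564.0 CPM in old 1, 2 and 3. Young 1 was the young library nearest to the old group, and the groups did not overlap. Its log2 fold change was -0.73 ± 0.13 (SE; edgeR adjusted p = 0.00109). On log2(FPKM + 1) with limma neither ferritin gene passed: Fth1 had -0.43 (adjusted p = 0.0535) and Ftl1 -0.41 (adjusted p = 0.05235). Of the 8 genes, Ftl1 alone had estimated counts that were not whole, in 6 of 6 libraries. Ferritin has processed pseudogenes in the mouse, how the authors assigned shared reads is not given, and the value of Ftl1 is uncertain to that extent.

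Trf and Tfrc bring iron into cells. Trf (gene 22041, chromosome 9, 103208876 to 103230286), whose product binds iron in plasma and other fluids, had 1863, 2320 and 2649 CPM in young 1, 2 and 3 and 1111, 940.2 and 809.6 CPM in old 1, 2 and 3. The lowest young library was still far above the highest old one. The log2 fold change was -1.26 ± 0.15 (SE; edgeR adjusted p = 0.000103). In the mouse Trf is a strong gene of oligodendrocytes and liver. Of 8 oligodendrocyte markers 6 were tested: Mog, Mobp, Hapln2 and Olig1 fell, Mag did not pass (edgeR adjusted p = 0.0985) and Sox10, which Schwann cells also express, rose by 0.67 on the log2 scale. Their summed level overlapped between the groups, at 284.0 to 412.1 CPM in young and 393.3 to 413.2 CPM in old libraries, most of it Sox10. Mobp had 103.8, 15.45 and 7.61 CPM in young 1, 2 and 3, against 2.52 to 5.43 CPM in the old group. Of 6 liver markers 4 (Apoa1, Fgb, Serpina1a and Ahsg) were under 1 CPM on average. Alb fell, from 3.02, 1.54 and 1.52 CPM in young 1, 2 and 3 to between 0 and 0.134 CPM in the old group (edgeR adjusted p = 0.000247), and Ttr, at 19.9 and 17.5 CPM, did not pass (adjusted p = 0.411). The part of oligodendrocytes and liver RNA in the fall of Trf was not tested. In GENCODE the predicted gene Gm20425 shares 26307 of the 26444 bases of Trf on the same strand, and how reads of this span were assigned is not given.

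Tfrc (gene 22042, chromosome 16, 32608896 to 32632794) encodes the receptor that carries transferrin into the cell. It had 336.9, 272.0 and 239.4 CPM in young 1, 2 and 3 and 116.2, 111.7 and 111.1 CPM in old 1, 2 and 3. The old libraries were nearly level, with a coefficient of variation of 2.49%, and the young ones spread more, at 17.5%. The log2 fold change was -1.32 ± 0.12 (SE; edgeR adjusted p = 2.65e-05). Tfrc is abundant in red cell precursors, and erythroid markers fell too, in 10 of 10 cases. Their summed level was 2215, 3458 and 5044 CPM in young 1, 2 and 3 and 418.5 to 1277 CPM in old libraries. Young 1 was the highest library for Tfrc and the lowest young library for the erythroid sum, and the part of red cell precursors in the fall was not tested. In these bulk samples fewer cells of a type and less RNA per cell cannot be told apart, for this and every other gene.

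Slc40a1, Cp and Heph serve the release of iron. Slc40a1 (gene 53945, chromosome 1, 45908070 to 45926532) encodes ferroportin, the cellular exporter of iron. It had 10.59, 11.3 and 8.35 CPM in young 1, 2 and 3 and 3.06, 3.79 and 3.11 CPM in old 1, 2 and 3. Each young library held more than any old one, with young 3 the lowest of its group. The log2 fold change was -1.60 ± 0.17 (SE; edgeR adjusted p = 6.83e-05). Heph (gene 15203, chromosome X, 96455436 to 96574485), a membrane-bound ferroxidase, was covered by 231, 233 and 237 estimated counts in young 1, 2 and 3, against 56, 68 and 44 in old 1, 2 and 3. Young libraries were almost equal, and old ones varied more in proportion (coefficients of variation of 6.10 and 19.9% in CPM). Its log2 fold change of -1.82 (edgeR adjusted p = 6.52e-05) was the strongest of the 8, and 2.13% of tested features had a lower one. On log2(FPKM + 1), where a pseudocount of 1 is near or above their levels, the values of Heph and Slc40a1 were -0.70 and -0.84.

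Heph is X-linked, and the age groups also differ in sex-linked RNA. Xist, the RNA of the inactive X, ran from 12613 to 18384 counts in the young group and from 0 to 9 in the old group, while the Y-linked Ddx3y had 0 in each young library and 868 to 1107 in old ones. Age and these sex-linked profiles cannot be told apart in this design, for any of the 8 genes. Among 520 tested protein-coding genes of the X chromosome 179 fell and 94 rose, with a median log2 fold change of -0.14, beside -0.13 for all protein-coding genes.

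Cp (gene 12870, chromosome 3, 19956933 to 20009750), the secreted and membrane-anchored ferroxidase, changed least. It had 498.8, 562.0 and 611.5 CPM in young 1, 2 and 3 and 401.3, 334.0 and 356.9 CPM in old 1, 2 and 3. The gap between young 1 and old 1 was smaller than the range within the young group, but the groups did not overlap. The log2 fold change was -0.61 ± 0.10 (SE; edgeR adjusted p = 0.000639). Hps3 lies on the opposite strand and shares 13201 of the 52092 bases of Cp in GENCODE. It had a log2 fold change of -0.15 (edgeR adjusted p = 0.217), and strandedness of the counting is not given.

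Hmox1 (gene 15368, chromosome 8, 75093618 to 75100593) encodes the inducible heme oxygenase, which splits heme into iron, carbon monoxide and biliverdin. It had 13.53, 18.6 and 23.18 CPM in young 1, 2 and 3 and 9.72, 10.33 and 10.21 CPM in old 1, 2 and 3. The young libraries covered a wide range (coefficient of variation 26.2%), while the old ones were close together (3.24%). The log2 fold change was -0.87 ± 0.18 (SE; edgeR adjusted p = 0.00232), or -0.70 without young 3 and -1.08 without young 1. Hmox1 and Slc40a1 are strongly expressed by macrophages that recycle red cells. Of 9 tested macrophage markers 5 fell and none rose, with summed levels of 217.9 to 234.4 CPM in the young and 152.8 to 183.9 CPM in the old group. Cd68, C1qa, C1qb and Cx3cr1 did not pass (edgeR adjusted p from 0.185 to 0.907). Spic, which marks the iron-recycling macrophages of the spleen, was below the filter on low counts. It had 22, 25 and 6 estimated counts in young 1, 2 and 3 and 1, 1 and 4 in old 1, 2 and 3. The part of macrophages in the falls was not tested.

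Other cell types moved with the 8 genes as well. All 5 fibrocyte markers fell, with summed levels of 9212 to 11970 CPM in the young and 4777 to 6372 CPM in the old group. All 5 markers of marginal cells, the secretory cells of the stria vascularis, fell from 6469 to 9583 CPM to 3358 to 3793 CPM. Neutrophil markers fell in 7 of 7 cases, from 696.2 to 963.0 CPM to 38.18 to 115.0 CPM, and osteoblast markers in 4 of 5. Endothelial markers went both ways, with 1 higher and 1 lower of 5 (331.9 to 357.6 and 328.3 to 354.4 CPM). The part of these cell types in the results was not tested. Of 6 hair cell markers 5 were tested and fell, and the cochlear genes Coch and Otos stood at 6248 and 1423 CPM on average in young libraries.

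Set against each other per length, the 8 genes span more than 3 orders of magnitude, and their order was the same in both groups. FPKM (fragments scaled by transcript length and library total, as the authors computed them) averaged 2129 ± 69.5 (SD, n = 3) in young and 1582 ± 97.4 in old libraries for Fth1, which ranked 11 and 8 among protein-coding genes. Ftl1 followed with 1191 ± 188 and 892 ± 41.6, and Trf with 973 ± 120 and 499.5 ± 75.6. Among neighbours in this order, Ftl1 and Trf overlapped in the young libraries and no other pair did in either group. Cp had 129 ± 6.63 and 101 ± 9.09 FPKM, Tfrc 55.0 ± 12.7 and 26.5 ± 0.44, and Hmox1 12.2 ± 2.62 and 8.27 ± 0.34. Slc40a1, with 2.91 ± 0.55 and 1.17 ± 0.15, and Heph, with 1.40 ± 0.042 and 0.477 ± 0.095, closed the order. Ceruloplasmin mRNA thus outnumbered that of hephaestin in every library.

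Ratios within a library do not depend on the scaling between libraries, and 5 were tested. The ratio of Fth1 to Ftl1 FPKM was 2.05, 1.80 and 1.59 in young 1, 2 and 3 and 1.62, 1.80 and 1.91 in old 1, 2 and 3. The groups overlapped, and the means were 1.81 ± 0.23 and 1.78 ± 0.15 (SD, n = 3; two-sided exact permutation p = 0.9). The ratio of Fth1 to Tfrc was 30.3, 40.1 and 50.3 in young 1, 2 and 3 and 54.6, 62.8 and 62.0 in old 1, 2 and 3. Every old library lay above every young one, a 1.51-fold higher ratio in old; the receptor mRNA was lower by more than the ferritin mRNA. The ratio of Ftl1 to Tfrc was 1.54-fold higher in old, with 14.8 to 31.7 in young and 32.4 to 34.9 in old libraries. Cp to Heph was 86.7, 95.9 and 94.7 in young 1, 2 and 3 and 231, 163 and 263 in old 1, 2 and 3, a 2.32-fold difference without overlap. Each of these 3 ratios had an exact permutation p of 0.1, the smallest that 3 against 3 libraries allow, and 0.167 after Benjamini-Hochberg adjustment over the 5 ratios, so none could pass. Trf to Tfrc was 12.3, 19.0 and 24.7 in young and 21.4, 18.8 and 16.3 in old libraries 1, 2 and 3, with overlapping groups (exact permutation p = 0.9).

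**Figure D2:**
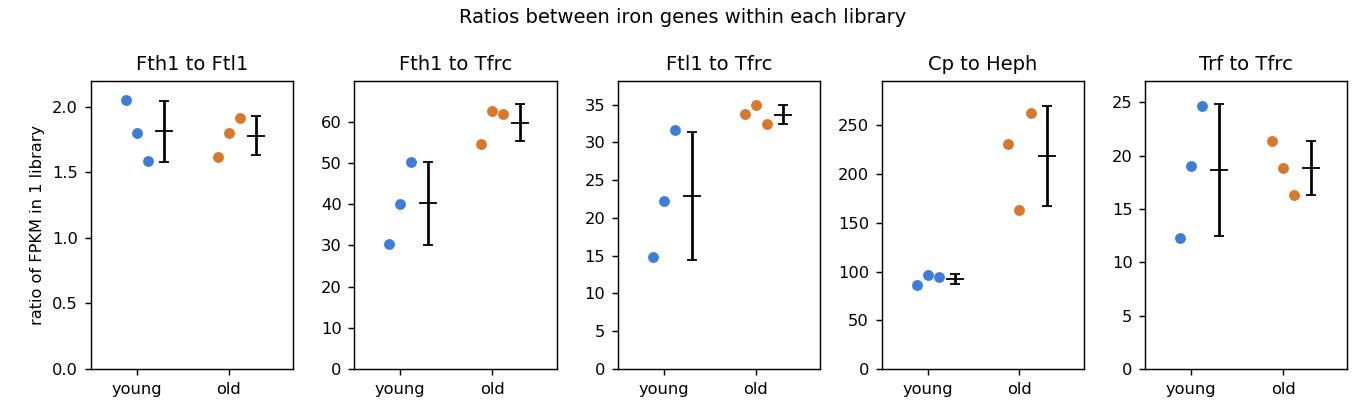
Ratio of FPKM between 2 genes within 1 library (linear axes from 0) for young (blue) and old (orange) libraries 1 to 3, with mean ± SD. Fth1 to Tfrc, Ftl1 to Tfrc and Cp to Heph are higher in every old library than in any young one, while Fth1 to Ftl1 and Trf to Tfrc overlap.

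Other genes of the iron pathway went in both directions. Of 79 other genes in 5 lists of the pathway 75 were tested; 40 fell (53.3%), 9 rose and 26 did not pass, with a median log2 fold change of -0.37. Of all features 27.3% fell, and of protein-coding genes 34.7%, with a median of -0.13. With library totals alone 25 of the 75 fell (33.3%) and 16 rose, beside falls in 14.5% of all features and 18.4% of protein-coding genes. The genes in these lists were counted by direction with no test of the lists.

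**Figure D3:**
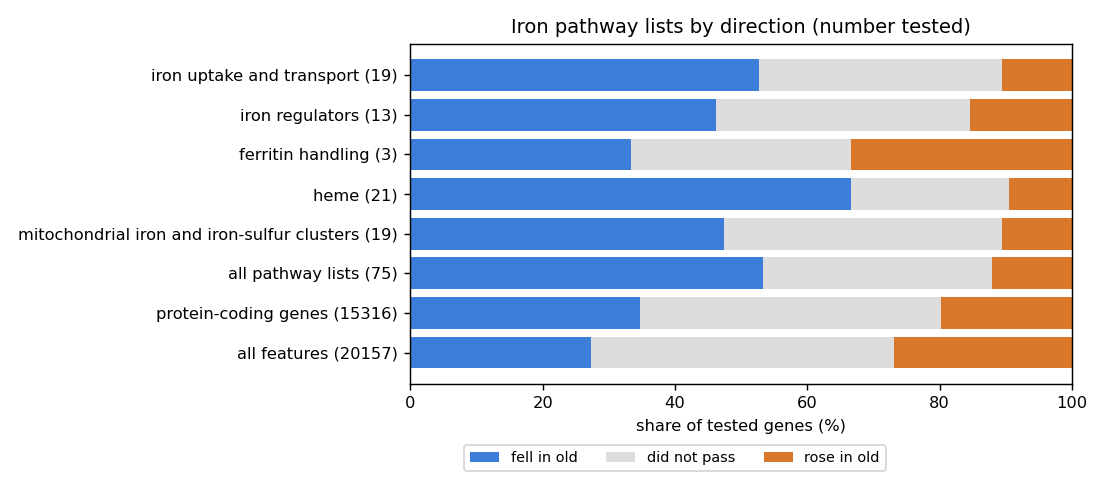
Share of tested genes (%, number tested in brackets) that fell (blue), did not pass (grey) or rose (orange) in old libraries, for 5 iron pathway lists, their union, protein-coding genes and all features. The heme list has the largest blue part, 14 of 21 genes, among lists that hold more than 3 genes.

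Sensors and regulators of iron fell in 6 of 13 tested cases (46.2%, beside 34.7% of protein-coding genes) and rose in 2; with library totals alone 4 fell and 3 rose. Both genes of iron regulatory proteins fell: Aco1, which doubles as the cytosolic aconitase, stood at 55.6 to 67.1 CPM in the young and 36.5 to 37.9 CPM in the old group (log2 fold change -0.73 ± 0.09, SE; edgeR adjusted p = 0.000138), and Ireb2 had 79.1 to 93.1 and 54.8 to 60.7 CPM (-0.59 ± 0.09). Fbxl5, whose product marks these proteins for degradation when iron is plentiful, fell by 0.42 on the log2 scale with TMM, and had -0.15 (adjusted p = 0.222) with library totals alone. Bach1, a heme-binding repressor of Hmox1 and the ferritin genes, fell by 0.42 with TMM and had -0.15 (adjusted p = 0.222) with library totals alone. Nfe2l2, the activator of the same genes, had 0.00 (adjusted p = 0.971), and the membrane protein gene Hfe had -0.05 (adjusted p = 0.676). Nfe2l2 passed as higher with library totals alone (0.28, adjusted p = 0.0414) and on both FPKM scales. Tmprss6, a protease gene that restrains hepcidin production, fell from 20.2 ± 4.49 to 7.64 ± 1.44 CPM (SD, n = 3) (-1.40). Hamp, the gene of hepcidin itself, had between 0 and 5 counts per library and did not pass the filter. The 2 that rose were Epas1 (0.40) and Bmp6 (0.37), named after their values were seen; Bmp6 lost its call without any 1 of the 6 libraries except young 3 (adjusted p from 0.0602 to 0.0865).

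Uptake and transport genes fell in 10 of 19 cases (52.6%, beside the same 34.7%) and rose in 2; with library totals alone 7 fell and 3 rose. Slc11a2, the carrier of ferrous iron out of endosomes, fell by 0.49 on the log2 scale (edgeR adjusted p = 0.000512). Meltf, which encodes the transferrin-like melanotransferrin, fell from 135 to 67.0 CPM (-1.01), and the ferric reductase gene Cybrd1 by 0.88, a call lost on both FPKM scales (-0.27 with adjusted p = 0.05104 for log2(FPKM + 1), and -0.55 with adjusted p = 0.0723 for log2(FPKM + 0.1)). Ltf (lactoferrin, -3.65) and Lcn2 (a carrier of iron-binding siderophores, -2.67) are also granule genes of neutrophils, whose markers fell in 7 of 7 cases as given above. Ltf is itself 1 of these 7 markers. The 2 that rose, named after their values were seen, were Slc39a8 (0.39) and Hephl1, a relative of hephaestin. Hephl1 had 18, 17 and 10 estimated counts in young 1, 2 and 3 and 52, 50 and 59 in old 1, 2 and 3 (log2 fold change 2.08 ± 0.32, SE; edgeR adjusted p = 0.000481), opposite in direction to Heph. Slc39a8 lost its call without young 1, young 2, old 1 or old 2 (adjusted p from 0.0643 to 0.0676).

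Of the ferritin handling genes, Ncoa4, the receptor that sends ferritin to lysosomes, stood at 173 CPM in the young and 178 CPM in the old group on average (log2 fold change 0.04, adjusted p = 0.79), and passed as higher with library totals alone (0.32, adjusted p = 0.0146) and on both FPKM scales. The genes of the iron chaperones Pcbp1 and Pcbp2 moved in opposite directions, by 0.32 and -0.51. The call of Pcbp1 ended when young 2 (adjusted p = 0.05394), old 1 (0.0823) or old 2 (0.05455) was left out.

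Heme genes fell in 14 of 21 cases (66.7%, beside 34.7% of protein-coding genes) and rose in 2; with library totals alone 10 fell and 4 rose. Among genes of the enzymes that make heme, Alas2 (-2.31), Uros (-0.79), Urod (-1.13), Cpox (-0.57), Ppox (-0.37) and Fech (-0.57) fell, while Alas1 and Alad did not pass (-0.13 and -0.19; edgeR adjusted p = 0.299 and 0.196). Cpox and Ppox did not pass with library totals alone (adjusted p = 0.0719 and 0.529), nor on either FPKM scale, and Ppox also not with TMM on protein-coding genes (0.0922), without young 2 (0.0833) or without old 3 (0.05595). Alas2 is the red cell form, had 40.7, 58.2 and 73.5 CPM in young 1, 2 and 3 and 6.38 to 18.6 CPM in old libraries, and fell with the erythroid markers, of which it is itself 1. Hp, whose product haptoglobin binds free hemoglobin and is also stored by neutrophils, fell by 3.38 on the log2 scale, and Slc48a1, a carrier of heme out of endosomes and lysosomes, from 218 to 109 CPM (-1.01). Both biliverdin reductase genes, Blvra (-0.74) and Blvrb (-0.75), which act on the product of Hmox1, fell. Hmox2, the constitutive heme oxygenase, rose by 0.38 (edgeR adjusted p = 0.00299), opposite in direction to Hmox1, and the transporter gene Abcg2 rose by 0.31, a call that ended when young 2 (adjusted p = 0.0924), young 3 (0.0785) or old 1 (0.0627) was left out.

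In mitochondria 9 of 19 genes of iron import and iron-sulfur cluster assembly fell (47.4%, beside 34.7% of protein-coding genes) and 2 rose. With library totals alone 3 fell (15.8%, beside 18.4%) and 4 rose: Slc25a37, Isca1, Iba57, Abcb8, Bola3 and Nfu1 no longer passed. Nfs1, the cysteine desulfurase that provides the sulfur, fell from 33.5 to 15.9 CPM (log2 fold change -1.07 ± 0.17, SE), and Glrx5, which passes clusters on, from 39.0 to 19.9 CPM (-0.97 ± 0.10). Iscu, the scaffold on which clusters are built, rose from 59.8 to 96.1 CPM (0.69 ± 0.08; edgeR adjusted p = 8.92e-05). Fdxr, a reductase of the same route, rose by 0.35 (adjusted p = 0.0238) and lost its call without a filter (0.0706), with the replicate block (0.05015) and without young 1, young 2, old 2 or old 3 (adjusted p from 0.0568 to 0.0927). Both genes that rose are named after their values were seen.

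**Figure D4:**
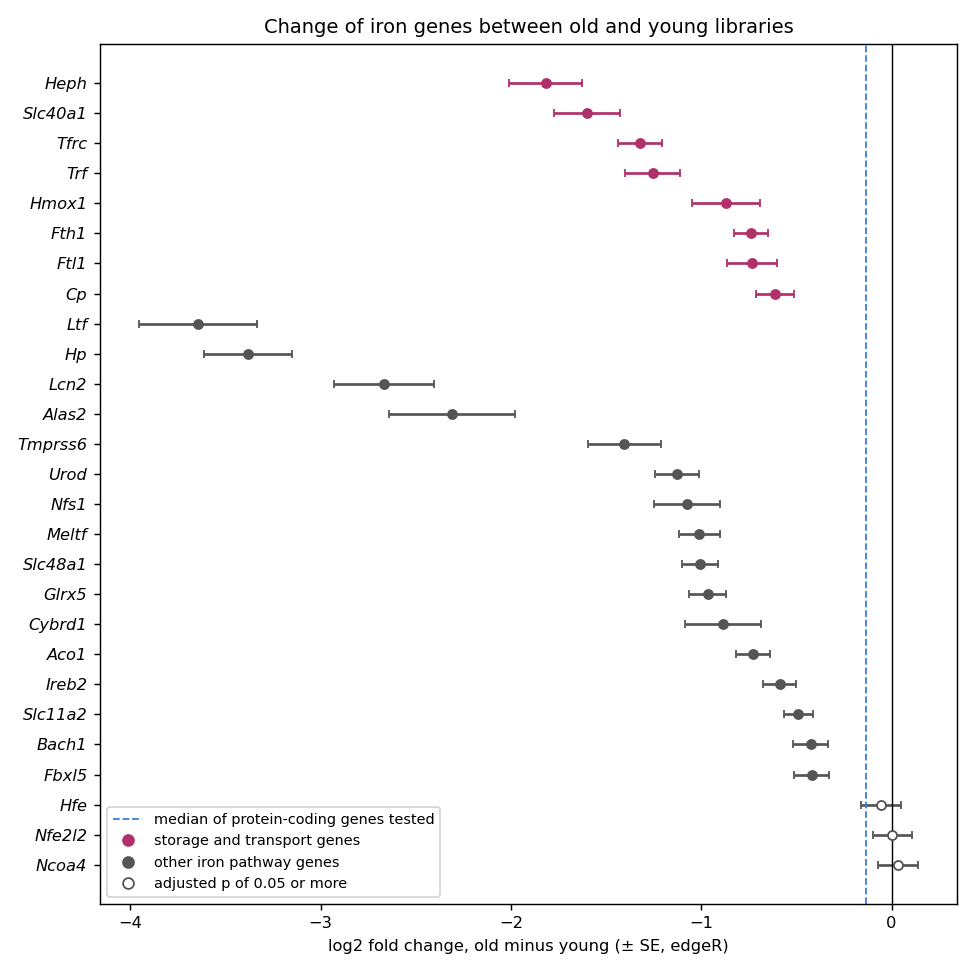
Log2 fold change, old minus young (± SE, edgeR), of the 8 storage and transport genes (magenta) and of other iron genes named in the text (grey; open symbols did not pass); the dashed line is the median of protein-coding genes, -0.13. The 8 genes lie between -0.61 for Cp and -1.82 for Heph, and Hfe, Nfe2l2 and Ncoa4 lie near 0.

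Across the 6 libraries the protein-coding gene most like each of 7 of the 8 in log2 CPM was Tk2 for Fth1, Rnh1 for Ftl1, Ctnnbip1 for Tfrc, Mcu for Trf, Errfi1 for Cp, Atp5g3 for Heph and Slco1a4 for Slc40a1. Pearson's r ran from 0.9982 to 0.9999 among 11974 genes with at least 5 CPM on average. Between 737 and 2000 of these genes had an r above 0.95 with each of the 7, and all points share the difference between the age groups, so that the values are a description.

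**Figure D5:**
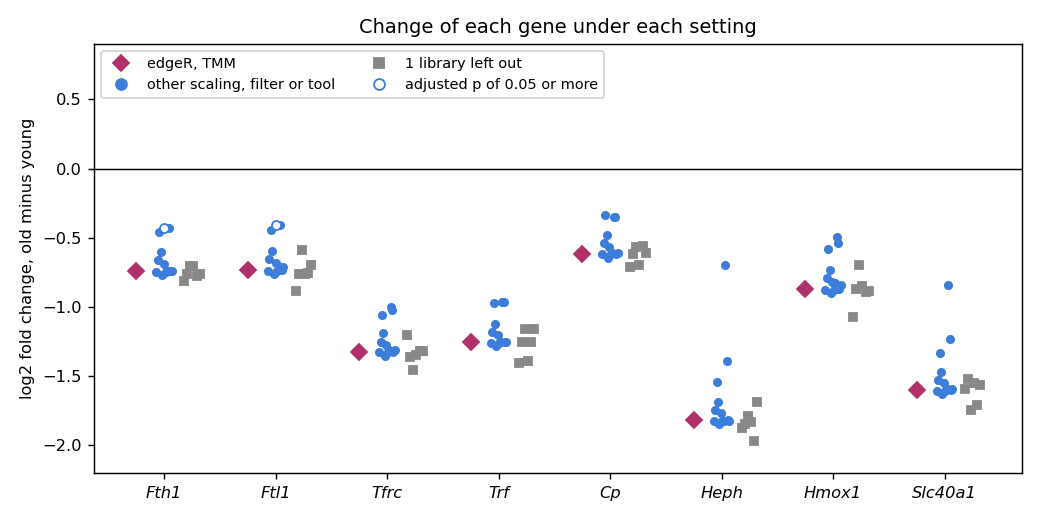
Log2 fold change, old minus young, of each of the 8 genes in the edgeR fit with TMM (diamonds), under 12 other scalings, filters or tools (circles) and with 1 library left out (squares); open circles did not pass. All values lie below 0, and the 2 open circles are Fth1 and Ftl1 on log2(FPKM + 1).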

How the data were processed

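The authors deposited estimated counts per gene, not scaled between libraries (20.2% of gene values are not whole), and FPKM, scaled by length and library total, per the file headers. The build was GRCm38.p6, per the submitters' processing notes. The sources used here do not give the aligner, quantifier, annotation or strandedness. Of 42623 entries the 8228 circular RNAs were left out. Gene totals ran from 37084017 to 39433584 counts in young and from 26245416 to 26839068 counts in old libraries. TMM factors were 0.863 to 0.963 in young and 1.087 to 1.112 in old libraries. Depth and age group cannot be told apart in this design. Classes and positions came from RefSeq (GRCm38.p6), elements and overlaps from GENCODE M21.

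Estimated counts were rounded and tested with edgeR 4.0.16 (R 4.3.3): filterByExpr by group, TMM, quasi-likelihood F tests, Benjamini-Hochberg over 20157 features, called at an adjusted p under 0.05. The SE is the log2 fold change divided by the root of F. CPM used TMM-scaled totals. Adjusted p-values without another name are edgeR's; limma 3.58.1 tested log2 FPKM. The fit was tested on simulated data. Ratios were tested with exact permutation in SciPy 1.17.1. Libraries of 1 group differed beyond counting noise, so none was counted as a copy.

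Beside the 8 genes and 9 regulators, the naming rule took 12 other pathway genes, those past the threshold with the largest fold changes with a group mean of 5 CPM or more. Members and lists were chosen with earlier results of these data known. Further genes are named after their values were seen. Of the genes these rules name, 2 are not reported here. The 5 near copies of ferritin genes that were looked for were not found by symbol among the gene entries, nor was Ftmt. Alternatives were other scalings, filters and tools (DESeq2 1.42.0, limma-voom), FPKM, a replicate block and leaving out each library.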

Additional observations from a re-analysis of the deposited data

How the results depend on the processing

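The 8 genes kept their direction under all 18 alternatives, and 142 of 144 values their side of the threshold; on log2(FPKM + 1) Fth1 (-0.43) and Ftl1 (-0.41) did not pass, and 1 gene in place of 4 was at least 2-fold lower. Leaving out 1 library gave 8 falls each time, with log2 fold changes of -0.81 to -0.70 for Fth1, -0.89 to -0.59 for Ftl1, -1.45 to -1.20 for Tfrc, -1.41 to -1.16 for Trf, -0.71 to -0.56 for Cp, -1.97 to -1.69 for Heph, -1.08 to -0.70 for Hmox1 and -1.74 to -1.52 for Slc40a1. The 40 falls and 9 rises of pathway genes were 25 and 16 with library totals alone, 24 and 17 on log2(FPKM + 1), 24 and 16 on log2(FPKM + 0.1), and 35 to 44 and 4 to 8 with 1 library left out (4 rises without young 2, and 5 without old 1 or old 2). Over all features TMM gave 5496 falls and 5427 rises, and library totals alone 2920 and 8259, and 2758 and 2792 fell on the 2 FPKM scales, with 73.7 and 73.9% of calls higher. Without 1 library the log2 difference of the Fth1 to Ftl1 ratio was -0.11 to 0.06872 (-0.02 with all libraries, reversed without young 1 or old 1) and that of Trf to Tfrc -0.21 to 0.29 (0.06 with all libraries, reversed without young 1 or old 1); the cause was not tested. Values near 0 changed sign: Hfe was 0.01996 with upper-quartile scaling, 0.078 with protein-coding TMM, 0.22 on library totals, and 0.24 and 0.28 on the FPKM scales; Nfe2l2 was -0.001531 with DESeq2 size factors, -0.001532 with DESeq2, -0.024 without a filter, -0.003717 with limma-voom, -0.003197 with the replicate block and -0.12 to 0.05978 with 1 library left out; Ncoa4 was -0.07119 to 0.10 with 1 library left out. Libraries of the same number did not deviate together (r of -0.11, 0.046 and -0.11 for numbers 1, 2 and 3), so the numbers were not taken as pairs; with the replicate block 8 of the 8 genes fell, and 5079 of all features fell and 4860 rose. Low counts limit Heph and Slc40a1, and Hamp could not be tested.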
